A study of Mus musculus with 36 samples.

Results

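Transforming growth factor beta (TGF-beta) is a family of secreted cytokines, and the genes described here are its ligands, receptors and a few genes that carry or answer its signal. The 9 genes were chosen by their role in the pathway and found by gene symbol in the probe table of the array, out of 19057 genes with a probe. They were the ligands Tgfb1, Tgfb2 and Tgfb3, the receptors Tgfbr1 and Tgfbr2, the signal transducer Smad3, the inhibitors Smad7 and Skil, and Tgfbi, a matrix protein named after its induction by TGF-beta. Together they have 19 of the 45281 probes on the array.

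TGF-beta is secreted in a latent complex and has to be released from it, by integrins or proteases, before it can bind. The free ligand binds the type II receptor (Tgfbr2), which phosphorylates the type I receptor (Tgfbr1), and this kinase in turn phosphorylates Smad2 and Smad3, which enter the nucleus with Smad4. In tumours the pathway is known for restraining the growth of epithelial cells, for driving matrix production by fibroblasts and for dampening immune cells.

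The data are Illumina Mouse WG-6 bead arrays of 30 tumours of Lewis lung carcinoma (LLC, a mouse lung carcinoma line that is grown as a transplanted tumour) from male mice, and 6 arrays of the LLC cells themselves. Grouped by the age and irradiation of the host, 10 tumours were young unirradiated, 8 young irradiated, 7 middle-aged unirradiated and 5 middle-aged irradiated. Irradiated hosts had 5 exposures of 0.2 Gy of 56Fe (iron ions, a component of space radiation). These are counts of tumours, and whether each grew in a separate mouse is not stated in the labels. The series names the young unirradiated mice as its reference. The strain, the ages in numbers and the time between irradiation and tumour growth are not given in the labels, and the tumours carry no chip or batch label. The cell arrays are technical controls of 1 line in 2 batches of 3, so they do not show how independent cultures of LLC cells vary.

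Every level below is the log2 normalized intensity of the brightest probe of a gene, so levels of different genes are not compared with each other. In 28 of the tumours between 17329 and 19843 probes were detected, and on the cell arrays between 16420 and 18546. The 2 remaining tumours, young irradiated replicates 6 and 8, gave dim arrays with 11860 and 14828 detected probes. Before normalization the upper quartile of the signal was 91.6 and 102 on those 2 arrays, and 1123 and 863 on the 2 brightest (replicate 2 of the young irradiated and replicate 1 of the middle-aged unirradiated tumours), against a range of 160 to 462 on the others. Some results that include these arrays are also given without them. In the comparisons among tumours, the differences of the other pathway genes and of the marker lists are given only with all arrays. Of the epithelial markers, the keratins Krt8 and Krt18 were detected in all 30 tumours and on all 6 cell arrays, whereas Epcam and Krt19 were detected on none. Cdh1 was detected in 27 tumours and on 4 cell arrays, Cldn7 in 28 and on 5, Krt7 in 12 and on 2, and Cldn4 in 1 and on 1. How precise a value is depends on how many arrays stand behind it.

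Of the 9 genes, 8 were detected in enough tumours to be tested. Smad7, an inhibitor that blocks the type I receptor, has 1 probe, which was not above background on any of the 36 arrays, so no level or difference is given for it. Tgfb2 was detected in 28 of 30 tumours, all but the 2 dim ones, and on all 6 cell arrays. The other 7 genes were detected on every array. The plot of all arrays shows that the tumours stood above the cells for most of these genes, while the ranges of the 4 tumour groups largely overlapped.

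**Figure D1:**
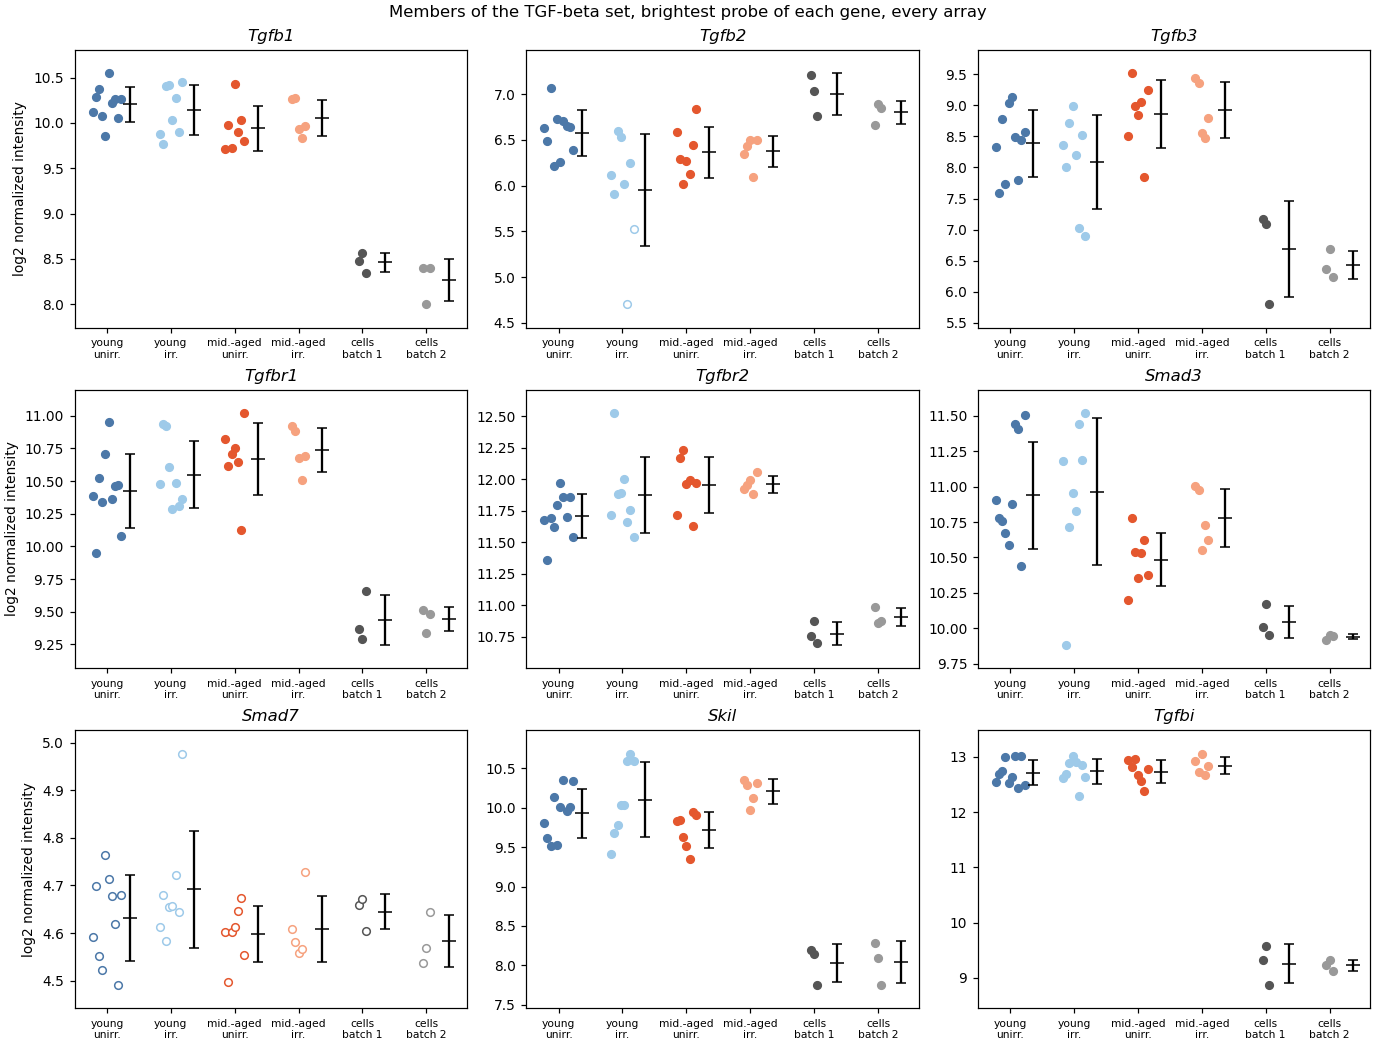
Log2 normalized intensity (y axis) of the brightest probe of each of the 9 genes on every array, by group (x axis; unirr. unirradiated, irr. irradiated, mid.-aged middle-aged). Points are arrays, open where the probe was not detected, and the bars beside them give the mean and SD; Tgfbi and Tgfb1 lie higher in all 30 tumours than on all 6 cell arrays, Tgfb2 lies lower in 26 of 30 tumours, and Smad7 is at background throughout.

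Tumours were set against LLC cells to see which of these transcripts were more abundant in the whole tissue than in the cultured line. Between them the 8 tested genes gave 6 that were higher in the tumours and 0 that were lower (limma, adjusted p under 0.05 over 11106 genes). Over all tested genes 21.0% were called and 11.7% were called higher. The median difference of the 8 genes was 1.44 on the log2 scale, against -0.07 over all genes. For 5 of the 8, every tumour was above every cell array, which held for 10.7% of all genes. A tumour holds host cells beside LLC cells, and in bulk tissue more cells of a type and more RNA per cell cannot be told apart.

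Among the ligands, Tgfb1 and Tgfb3 were higher in the tumours than in the cells and Tgfb2 was not. Tgfb1, the form made most widely and by immune cells in particular, ran from 9.71 to 10.55 in the 30 tumours with a median of 10.07. On the cell arrays it read 8.47, 8.56 and 8.35 in batch 1 and 8.40, 8.00 and 8.40 in batch 2. The lowest tumour thus lay above the highest cell array. The difference was 1.72 (SE 0.24), a 3.30-fold higher level with a 95% interval of 2.34 to 4.66 (adjusted p = 3.74e-06).

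Tgfb3, needed in the mouse embryo for the palate to close, ran from 6.89 to 9.52 in the tumours with a median of 8.54. On the cell arrays it read 7.17, 7.09 and 5.80 in batch 1 and 6.37, 6.69 and 6.24 in batch 2. It spread more than the other ligands on both sides, and 28 of 30 tumours lay above all cell arrays. The 2 that did not were the dim arrays, at 7.02 and 6.89. The difference was 2.01 (SE 0.57), 4.01-fold with an interval of 1.78 to 9.03 (adjusted p = 0.0115), and without the dim arrays it was 2.10 (adjusted p = 0.00126).

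Tgfb2, whose free form needs a co-receptor to bind Tgfbr2 well, was the only member whose mean in the tumours lay below that of the cells. It ran from 4.70 to 7.07 in the tumours with a median of 6.41. The cell arrays read 7.22, 7.04 and 6.76 in batch 1 and 6.66, 6.90 and 6.85 in batch 2. Of the 30 tumours, 26 lay below all 6 cell arrays and none lay above all of them. The difference of -0.59 (SE 0.38) did not pass the test (adjusted p = 0.293), and it was 0.00 with each array scaled to its median in place of quantile normalization. That scaling moved the median of all genes by 0.23 in this comparison.

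The promoters of the called ligand Tgfb1, of the uncalled ligand Tgfb2 and of the target Tgfbi, which differed most from the cells, are shown to compare the letters around their transcript starts. They are RefSeq sequences of GRCm38.p6, from 250 bases before to 50 after the annotated start, 5′ to 3′ on the strand of the gene, and 6 of the 9 genes had an entry. Capitals mark matches, on either strand, to CAGAC (the Smad box), TATAAA (the TATA box), GGGCGG (the GC box) and CACGTG (an E-box); no match shown overlaps one of another motif.
Tgfb1, chr7:25686752-25687051, plus strand: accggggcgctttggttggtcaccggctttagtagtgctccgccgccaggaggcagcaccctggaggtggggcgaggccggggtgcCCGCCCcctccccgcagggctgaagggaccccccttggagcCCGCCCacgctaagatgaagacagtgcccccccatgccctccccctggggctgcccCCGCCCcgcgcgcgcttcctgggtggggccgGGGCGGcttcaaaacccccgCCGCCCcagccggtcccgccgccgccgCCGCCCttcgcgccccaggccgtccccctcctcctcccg
Tgfb2, chr1:186705940-186706239, minus strand: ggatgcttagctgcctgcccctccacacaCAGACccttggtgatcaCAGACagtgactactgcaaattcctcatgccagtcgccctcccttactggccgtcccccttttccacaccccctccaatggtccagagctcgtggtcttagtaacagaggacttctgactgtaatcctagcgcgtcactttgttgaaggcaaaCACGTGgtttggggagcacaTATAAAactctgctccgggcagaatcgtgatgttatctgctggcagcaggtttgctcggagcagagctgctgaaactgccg
Tgfbi, chr13:56609336-56609635, plus strand: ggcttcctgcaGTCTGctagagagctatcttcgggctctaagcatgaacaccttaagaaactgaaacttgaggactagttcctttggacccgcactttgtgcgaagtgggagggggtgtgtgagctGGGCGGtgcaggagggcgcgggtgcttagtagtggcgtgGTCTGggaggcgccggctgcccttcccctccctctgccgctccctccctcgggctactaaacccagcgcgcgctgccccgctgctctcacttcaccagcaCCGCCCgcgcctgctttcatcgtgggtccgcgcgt
Tgfb1 held 6 GC boxes and 0 matches to the other motifs. Tgfb2 held 0 GC boxes, 2 Smad boxes, 1 E-box and 1 TATA box that begins at position -31 from the start. The start used for Tgfb2 lies inside the annotated gene, whose 5′ end on the minus strand is at 186709697. Those of Tgfb1 and Tgfbi are the 5′ ends of their genes. Tgfbi held 2 Smad boxes and 2 GC boxes. Over all 32851 RefSeq mouse promoters of 300 bases, 49.6% held CAGAC, 35.7% GGGCGG, 13.6% TATAAA and 7.15% CACGTG. These matches describe the letters only, and no binding was measured.

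Both receptors were higher in the tumours on their brightest probe, but their dimmer probes gave smaller differences. Tgfbr2 ran from 11.36 to 12.52 in the tumours with a median of 11.87, and the cell arrays read 10.76, 10.87 and 10.70 in batch 1 and 10.99, 10.86 and 10.87 in batch 2. Every tumour lay above every cell array. The difference was 1.03 (SE 0.23), 2.05-fold with an interval of 1.48 to 2.84 (adjusted p = 0.00142). The gene has 4 probes, of which 3 could be tested. Its other tested probes, at medians of 6.69 and 5.43 in the tumours, differed by -0.07 (adjusted p = 0.941) and 0.16 (adjusted p = 0.815). The 3 probes of this receptor thus did not give 1 size of difference.

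Tgfbr1 ran from 9.95 to 11.02 in the tumours with a median of 10.57. On the cell arrays it read 9.37, 9.29 and 9.66 in batch 1 and 9.51, 9.34 and 9.48 in batch 2. The ranges did not overlap, and the difference was 1.15 (SE 0.27), 2.22-fold with an interval of 1.52 to 3.24 (adjusted p = 0.00207). Of its 4 probes, 2 dimmer ones, each detected in 18 of 30 tumours, differed by 0.33 (adjusted p = 0.633) and 0.32 (adjusted p = 0.651). With the mean of all detected probes in place of the brightest, neither receptor passed: Tgfbr1 differed by 0.60 (adjusted p = 0.0542) and Tgfbr2 by 0.37 (adjusted p = 0.126).

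Skil, the SnoN protein that binds Smads and represses their targets, was higher in the tumours, and Smad3, which carries the signal into the nucleus, did not pass. Skil ran from 9.35 to 10.69 in the tumours with a median of 9.97. The cell arrays read 8.19, 8.14 and 7.75 in batch 1 and 8.29, 8.10 and 7.76 in batch 2. No tumour came down to the cell values. The difference was 1.95 (SE 0.33), 3.87-fold with an interval of 2.42 to 6.17 (adjusted p = 5.78e-05). A second probe of Skil differed by 1.39 without passing (adjusted p = 0.0612).

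Smad3 ran from 9.89 to 11.52 in the tumours with a median of 10.76, and the cell arrays read 10.01, 10.18 and 9.95 in batch 1 and 9.92, 9.96 and 9.95 in batch 2. A single tumour, young irradiated replicate 2 at 9.89, lay below the cell arrays, and the other 29 lay above all of them. The difference was 0.80 (SE 0.36), 1.74-fold with an interval of 1.04 to 2.91, and did not pass (adjusted p = 0.122). It passed without that tumour, which gave the brightest array, at 0.84 (adjusted p = 0.0426), and without the 2 dim and the 2 brightest arrays at 0.81 (adjusted p = 0.0315). The second Smad3 probe differed by 0.55 (adjusted p = 0.318).

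Tgfbi, a secreted protein that links cells to collagen, showed the largest difference of the 8 genes. Its level ran from 12.30 to 13.06 over the 30 tumours, with a median of 12.74. The cell arrays read 9.33, 9.58 and 8.87 in batch 1 and 9.23, 9.33 and 9.13 in batch 2. All tumours lay within a narrow band far above all cell arrays. The difference was 3.51 (SE 0.23), 11.4-fold with an interval of 8.27 to 15.7 (adjusted p = 4.34e-13). The second Tgfbi probe also passed, at 3.84 (SE 0.37). Over the 15 other settings of the analysis the difference stayed between 3.28 and 3.68.

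**Figure D2:**
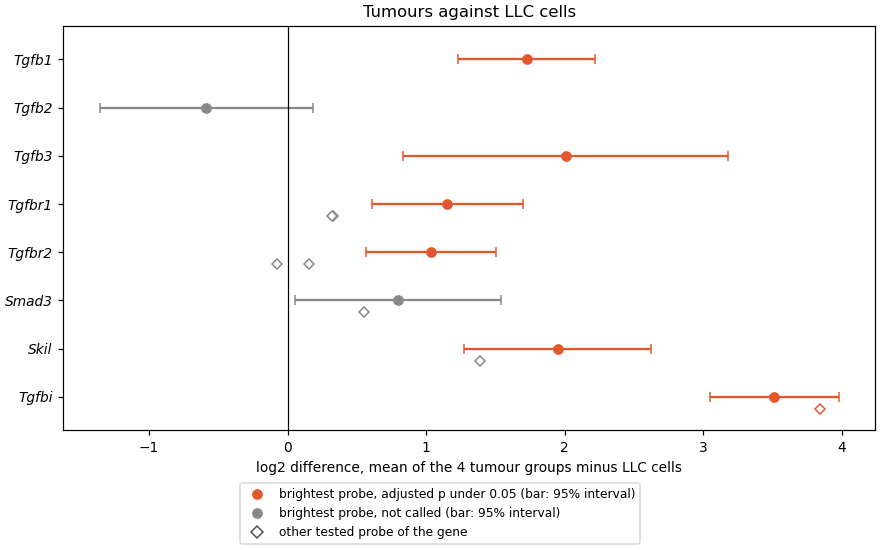
Log2 difference between the mean of the 4 tumour groups and the LLC cells (x axis) for the 8 tested genes (y axis). Circles are the brightest probe with its 95% interval, red where the adjusted p was under 0.05, and diamonds are the other tested probes of the gene in the same colours; Tgfbi stands at 3.51, and the dimmer probes of both receptors lie near 0.

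Macrophage, endothelial and fibroblast markers moved with the same comparison. Of the tested macrophage markers 14 of 15 were higher in the tumours, and the mean level of the list ran from 9.31 to 10.93 in the tumours against 5.22 to 5.37 on the cell arrays. Of this list, Adgre1, C1qa, C1qb, C1qc, Lyz2, Mrc1, Fcgr1, Aif1, Tyrobp, Laptm5, Ms4a7 and Fcer1g were detected on none of the cell arrays, while Csf1r was detected on 1 of them and Cd14 and Mertk on all 6. The endothelial list ran from 7.30 to 8.62 against 5.51 to 5.68, with 10 of 15 tested genes higher and Pecam1, Tek, Tie1, Esam, Robo4, Emcn, Sox18, Vwf, Cldn5, Erg and Plvap undetected in the cells, of which Erg was undetected in the tumours too. The fibroblast list ran from 9.13 to 10.68 against 6.94 to 7.18, with 9 of 16 higher, 1 lower, and Col1a1, Col1a2, Lum, Pdgfrb, Thy1, Fap, Postn and Mfap5 undetected in the cells, although Postn was detected in only 1 tumour. The other markers of these 2 lists were detected in the cells. Of the endothelial list, Flt1 and Egfl7 were detected on all 6 cell arrays, Kdr on 3, and Cdh5 and Mmrn2 on 1 each. Of the fibroblast list, Col3a1, Col5a1, Col6a1, Col6a2, Pdgfra, Fbln2, Sparc and Pcolce were detected on all 6 and Dcn on 2. The part of macrophages, endothelial cells and fibroblasts in the differences of the TGF-beta genes was not tested.

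Further lists differed less, next to 11.7% of all tested genes called higher. Of the tested neutrophil markers 4 of 11 were higher, of the pericyte and smooth muscle markers 1 of 8, and of the platelet markers 1 of 7. Of the T cell (5 tested), skeletal muscle (13) and epithelial (5) markers none was called. Of the tested T cell markers, Cd8b1 and Foxp3 were detected in all 30 tumours and on all 6 cell arrays. Cd3e, Cd3g and Zap70 were detected in 13, 9 and 5 tumours and on no cell array. The skeletal muscle list ran from 5.08 to 11.09 in the tumours against 4.98 to 5.10 in the cells, with a median of 5.42, so a few tumours stood far above the rest.

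Beside the 9 genes, 104 other genes of the pathway were listed by role, of which 93 had a probe and 77 could be tested. Against the cells 22 of the 77 were higher in the tumours and 3 were lower, with a median difference of 0.37. Over all 11106 tested genes 11.7% were called higher and 1035 genes were called lower. The target genes held the most, with 10 of 26 higher and 1 lower and a median of 1.00. Pdgfb, a growth factor for pericytes, was undetected in the cells and at least 6.76-fold higher in the tumours (limma adjusted p = 5.36e-10). Fibronectin (Fn1) was 8.03-fold higher (adjusted p = 1.18e-07) and the matrix protein Tnc 25.1-fold higher (adjusted p = 2.33e-07), although Tnc was detected on 1 of the 6 cell arrays. The target that was lower, chosen here after its value was seen, was Snai2, a repressor of epithelial genes, with a difference of -2.17 (SE 0.41, adjusted p = 0.000213). Col1a1 and Col3a1, among the called targets, also belong to the fibroblast marker list.

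Genes that store or free the ligand came next, with 5 of 14 higher and 0 lower. Nrros, which tethers latent TGF-beta on myeloid cells, differed by 3.71 (SE 0.36), the protease Plau by 1.91 (SE 0.41) and the integrin chain Itgav, which activates latent TGF-beta, by 1.39 (SE 0.31). Nrros was detected on 1 of 6 cell arrays and in all 30 tumours. Among the inhibitors and feedback genes 3 of 16 were higher and 1 was lower, Tgif2, named here after its value was seen. Decorin (Dcn), a proteoglycan that binds TGF-beta, differed by 8.44 (SE 0.29), the Smad repressor Ski by 0.87 (SE 0.26) and the endocytic adaptor Dab2 by 0.66 (SE 0.21). Dcn was detected on 2 of 6 cell arrays, and it also belongs to the fibroblast marker list.

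Of the co-receptors and related receptors 2 of 7 were higher. Betaglycan (Tgfbr3), the co-receptor that presents Tgfb2, differed by 1.40 (SE 0.25) and Nrp1 by 1.16 (SE 0.32). Of the activins and their relatives 1 of 5 was higher: Inhba, the activin A chain, was undetected in the cells and at least 2.98-fold higher. Among the Smads and their partners 1 of 10 was higher, Trim33, which binds phosphorylated Smads, at 0.91 (SE 0.21), and 1 was lower, Smad2 at -0.68 (SE 0.24). Lists of 5, 7, 10 or 16 tested genes give few counts to set beside the 11.7% called higher over all tested genes. No role list was tested against that share, the target genes and the genes that store or free the ligand included.

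**Figure D3:**
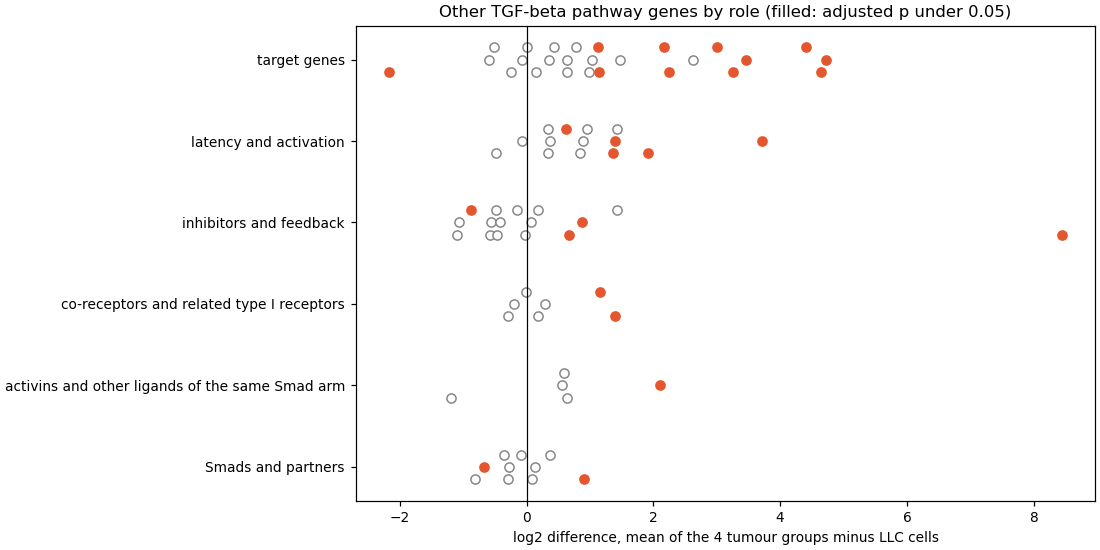
Log2 difference between tumours and LLC cells (x axis) for the tested genes of the 6 role lists (y axis), 1 point a gene, shifted up or down only to part them. Filled points had an adjusted p under 0.05; the target genes hold 10 filled points above 0 and 1 below, and Dcn stands furthest out at 8.44.

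Within the tumours, no comparison of age or irradiation called any of the 8 genes. The counts of genes called out of 10908 tested were 0 (0%) for age in unirradiated mice, for age in irradiated mice, for irradiation in young mice, for irradiation in middle-aged mice and for the difference between the irradiation effects, and 2 (0.0183%) for middle-aged irradiated against young unirradiated mice. At an unadjusted p under 0.05 the TGF-beta genes gave 3, 1, 1, 1, 1 and 2 of 8 in that order, where all genes gave 13.8%, 7.25%, 5.53%, 6.37%, 4.40% and 5.99%. Of the 77 other pathway genes 0 were called in each, with 14, 9, 7, 6, 1 and 6 at an unadjusted p under 0.05. The median difference of the 8 genes was -0.09, 0.11, 0.03, 0.09, 0.22 and 0.19, and that of all genes lay between -0.01 and 0.03. The 3 members with the smallest p are given for each comparison, none of them past the threshold. For each comparison the 7 marker lists with at least 7 tested genes are given by how many of their genes lay above 0. In all of these 0 marker genes were called, and their part in the values was not tested. The skeletal muscle list had a median of 5.55 in young unirradiated, 5.93 in young irradiated, 5.24 in middle-aged unirradiated and 5.23 in middle-aged irradiated tumours. The highest values were 11.09, 10.93, 6.89 and 9.36 in the same order. Its genes share these few high tumours, so its counts above or below 0 do not show a shift of a whole group.

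Age in unirradiated mice compared the 7 middle-aged with the 10 young tumours. Smad3 ran from 10.44 to 11.50 in the young (median 10.83) and from 10.20 to 10.78 in the middle-aged (median 10.53). Tgfb1 ran from 9.86 to 10.55 (median 10.24) and from 9.71 to 10.43 (median 9.90). Both sat lower in most middle-aged tumours, with overlapping ranges. The differences were -0.45 (SE 0.18, adjusted p = 0.272) for Smad3 and -0.27 (SE 0.12, adjusted p = 0.318) for Tgfb1. The second Smad3 probe gave -0.45 (SE 0.18), the same size, while with array brightness as a covariate the difference of Smad3 was -0.21. Tgfbr2 leaned the other way, from 11.36 to 11.97 in the young (median 11.69) and from 11.63 to 12.23 in the middle-aged (median 11.97), a difference of 0.25 (SE 0.11, adjusted p = 0.333), which shrank to 0.08 with the authors' own normalized values and to 0.14 with brightness as a covariate. Dimmer probes of Tgfbr2 gave 0.42 (SE 0.23) and -0.02 (SE 0.17). Dimmer probes of Tgfbr1 and Skil are named here after their values were seen. Those of Tgfbr1 gave 0.58 (SE 0.20, limma adjusted p = 0.223) and -0.35 (SE 0.20), and that of Skil -0.76 (SE 0.25, adjusted p = 0.216). Of the other pathway genes, the Smad corepressor Tgif1 at -0.60 (SE 0.20, adjusted p = 0.204) and the target Igfbp3 at -0.82 (SE 0.28, adjusted p = 0.230) had the smallest p. Endothelial markers leaned lower (1 of 15 above 0), at a mean list level of 7.72 ± 0.26 (SD, n = 7) in the middle-aged and 8.05 ± 0.33 (SD, n = 10) in the young. All 11 neutrophil markers lay below 0 (median -0.59), and so did all 13 skeletal muscle markers (median -1.32). Of the other lists, 12 of 15 macrophage, 10 of 16 fibroblast, 3 of 8 pericyte and 1 of 7 platelet markers lay above 0.

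Age in irradiated mice set 5 middle-aged against 8 young tumours. Tgfb3 read 9.44, 9.36, 8.56, 8.48 and 8.80 in the middle-aged and ran from 6.89 to 8.99 in the young (median 8.28). The 2 lowest young values came from the dim arrays, and the ranges overlapped. The difference was 0.84 (SE 0.32, adjusted p = 0.593), and 0.46 without the dim arrays. Tgfb2 differed by 0.42 (SE 0.21, adjusted p = 0.692) and fell to 0.14 without the dim arrays, to 0.24 without replicate 6 of the young irradiated tumours alone, and turned to -0.24 with median scaling, which moved the median of all genes by -0.15. Tgfbr1 differed by 0.19 (SE 0.15, adjusted p = 0.754), and by 0.11 with array quality weights. Crebbp, a coactivator of Smads, at 1.10 (SE 0.30, adjusted p = 0.435) and the integrin chain Itgb1 at 0.67 (SE 0.20, adjusted p = 0.480) had the smallest p among the other pathway genes. Fibroblast markers leaned higher in the middle-aged (14 of 16 above 0, median 0.20) and endothelial markers lower (4 of 15, median -0.17). The remaining lists held 10 of 15 macrophage, 7 of 11 neutrophil, 10 of 13 skeletal muscle, 4 of 8 pericyte and 4 of 7 platelet markers above 0.

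Irradiation in young mice gave its smallest p for Tgfb2. The ligand ran from 6.22 to 7.07 in the 10 unirradiated tumours (median 6.64) and from 4.70 to 6.59 in the 8 irradiated ones (median 6.07). The 2 lowest irradiated values, 4.70 and 5.52, were the dim arrays, where the probe was not detected, and the ranges overlapped. The difference was -0.63 (SE 0.18, unadjusted p = 0.00121, adjusted p = 0.812). It shrank to -0.34 without the dim arrays, to -0.28 without the 2 brightest as well, and to -0.07 with median scaling, which moved the median of all genes by 0.10. Tgfbr2 differed by 0.16 (SE 0.11, adjusted p = 0.910), by 0.07 without replicate 2 of the irradiated tumours and by 0.25 without the dim arrays. Tgfb3 differed by -0.30 (SE 0.27, adjusted p = 0.916), but by 0.07 without the dim arrays. Of the other pathway genes, the activin receptor Acvr1b at -0.71 (SE 0.26) and the ubiquitin ligase Smurf1 at -0.54 (SE 0.21) came first, both with an adjusted p of 0.889. Each was detected in 28 tumours, and their differences without the dim arrays are not given. The 26 target genes had a median of -0.21 with 4 above 0, against a median of -0.01 over all genes. Fibroblast markers leaned lower as well (3 of 16 above 0), at a mean list level of 9.44 ± 0.24 (SD, n = 8) against 9.75 ± 0.36 (SD, n = 10). Neutrophil (2 of 11 above 0, median -0.36), skeletal muscle (2 of 13, median -0.57) and platelet markers (1 of 7, median -0.20) leaned the same way. Of the macrophage markers 11 of 15 lay above 0, of the endothelial 5 of 15 and of the pericyte markers 3 of 8.

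Irradiation in middle-aged mice parted the groups for Skil on its brightest probe. It ran from 9.35 to 9.95 in the 7 unirradiated tumours (median 9.83) and read 10.36, 10.28, 9.97, 10.12 and 10.31 in the 5 irradiated ones. Every irradiated tumour thus lay above every unirradiated one, by a margin that is small next to the spread in either group. Such a split, with the irradiated tumours higher, held for 1 of the 8 genes and for 0.633% of all genes. The difference was 0.49 (SE 0.19), 1.41-fold with an interval of 1.07 to 1.84, and did not pass (adjusted p = 0.673). With arrays weighted by their quality, the dim ones least at 0.145 and 0.280, it was 0.53 and passed (adjusted p = 0.0426), the only one of 13 other settings in which it did. The second Skil probe gave 0.70 (SE 0.30, adjusted p = 0.780). On it the groups overlapped, from 5.89 to 6.93 in the unirradiated and from 6.84 to 7.38 in the irradiated tumours. Smad3 differed by 0.29 (SE 0.21, adjusted p = 0.882) and Tgfbi by 0.11 (SE 0.13, adjusted p = 0.919), the latter between 0.07 and 0.30 over the other settings and at 0.05 without replicate 6 of the unirradiated tumours. Plau at 0.84 (SE 0.23, adjusted p = 0.605) and the target Junb at -0.67 (SE 0.23, adjusted p = 0.637) led the other pathway genes. All 8 tested members lay above 0 on their brightest probe, Tgfb2 and Tgfbr2 at 0.01 each, as did 5519 of all 10908 tested genes. Dimmer probes of Tgfbr2 (-0.34 and -0.10) and Tgfbr1 (-0.07) lay below 0. The second probes of Smad3, Skil and Tgfbi and another of Tgfbr1 lay above 0. All 11 neutrophil markers (median 0.33) and all 13 skeletal muscle markers (median 1.00) lay above 0. The median level of the skeletal muscle list was 5.23 in the irradiated and 5.24 in the unirradiated tumours, with highest values of 9.36 and 6.89. Above 0 were also 7 of 15 macrophage, 11 of 15 endothelial, 7 of 16 fibroblast, 1 of 8 pericyte and 5 of 7 platelet markers.

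Middle-aged irradiated against young unirradiated mice joined both factors, and it shares samples with the comparisons above. Tgfbr1 read 10.92, 10.88, 10.67, 10.51 and 10.69 in the first and ran from 9.95 to 10.95 in the second (median 10.42). Tgfbr2 read 11.92, 11.96, 11.99, 11.88 and 12.06 against 11.36 to 11.97 (median 11.69). The receptors sat toward the top of the young range, and 2 of the 5 Tgfbr2 values lay above it. The differences were 0.31 (SE 0.14, adjusted p = 0.830) for Tgfbr1, 0.25 (SE 0.12, adjusted p = 0.832) for Tgfbr2 and 0.54 (SE 0.31, adjusted p = 0.872) for Tgfb3. With the mean of detected probes the Tgfbr2 difference was 0.07. Crebbp at 1.40 (SE 0.29, adjusted p = 0.0883) came nearest to the threshold of all pathway genes, before Itgb1 at 0.67 (SE 0.20, adjusted p = 0.419). Endothelial markers leaned lower in the middle-aged irradiated tumours (1 of 15 above 0, median -0.21), as did all 11 neutrophil (median -0.33) and all 13 skeletal muscle markers (median -0.18). Macrophage markers leaned higher (13 of 15, median 0.16), and 8 of 16 fibroblast, 2 of 8 pericyte and 1 of 7 platelet markers lay above 0.

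The difference between the irradiation effects asked whether irradiation moved a gene differently in middle-aged than in young mice. Tgfb2 had the smallest p, at 0.63 (SE 0.28, adjusted p = 0.978), from an effect of 0.01 in the middle-aged and -0.63 in the young. Without the dim arrays the difference was 0.35, and with median scaling 0.03. Skil gave 0.32 (SE 0.24, adjusted p = 0.978) and Tgfb1 0.18 (SE 0.18, adjusted p = 0.980). Without the dim arrays Skil gave 0.48, and the value for Tgfb1 ran from 0.09 to 0.28 over the other settings. The 95% interval for Skil ran from -0.18 to 0.82, so a sizeable difference between the ages could not be told from none. Angptl4, a target, at 1.12 (SE 0.48) and Smurf1 at 0.66 (SE 0.33) led the other pathway genes, both with an adjusted p of 0.978. Their values without the dim arrays are not given. All 11 neutrophil markers (median 0.60) and all 13 skeletal muscle markers (median 1.62) lay above 0, as did 7 of 7 platelet (median 0.34) and 14 of 15 endothelial markers (median 0.16). The counts above 0 were 5 of 15 for macrophage, 12 of 16 for fibroblast and 2 of 8 for pericyte markers.

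**Figure D4:**
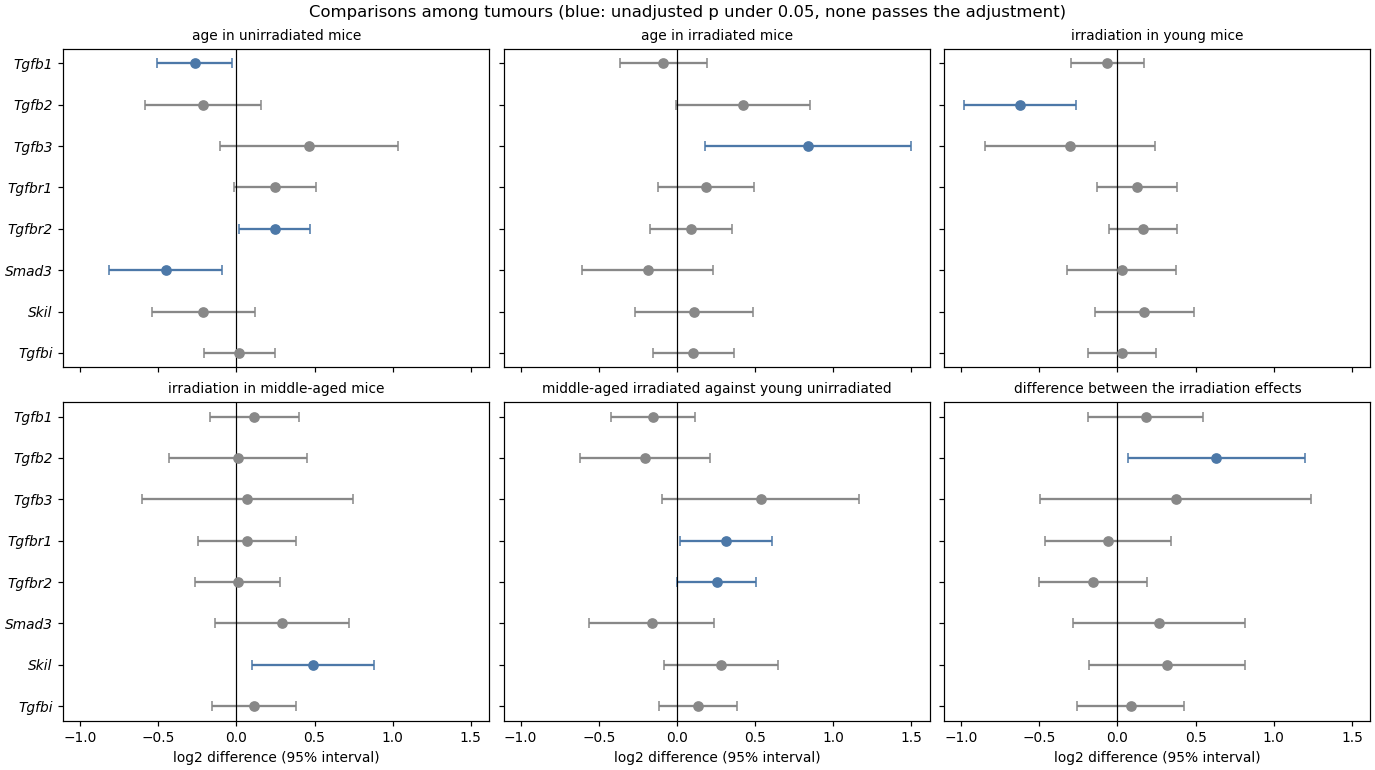
Log2 difference with its 95% interval (x axis) of the 8 tested genes (y axis) in the 6 comparisons among tumours, 1 panel each. Blue marks an unadjusted p under 0.05, which 3 genes reached for age in unirradiated mice; no gene had an adjusted p under 0.05.

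The means of the 4 tumour groups lay close together for some genes and further apart for others. From the lowest to the highest group mean, Tgfbi ran from 12.71 ± 0.23 (SD, n = 10) in young unirradiated to 12.84 ± 0.16 (SD, n = 5) in middle-aged irradiated tumours. Tgfb1 ran from 9.94 ± 0.25 (SD, n = 7) in middle-aged unirradiated to 10.21 ± 0.19 (SD, n = 10) in young unirradiated tumours. Neighbouring groups in these orders lay within 1 SD of each other. Tgfb3 had the widest spread, from 8.09 ± 0.76 (SD, n = 8) in young irradiated to 8.93 ± 0.45 (SD, n = 5) in middle-aged irradiated tumours. Skil ran from 9.72 ± 0.22 (SD, n = 7) in middle-aged unirradiated to 10.21 ± 0.16 (SD, n = 5) in middle-aged irradiated tumours, which is more than either SD. Smad3 ran from 10.49 ± 0.19 (SD, n = 7) in middle-aged unirradiated to 10.96 ± 0.52 (SD, n = 8) in young irradiated tumours. Tgfb2 ran from 5.95 ± 0.61 (SD, n = 8) in young irradiated tumours, the dim arrays included, to 6.58 ± 0.25 (SD, n = 10) in young unirradiated ones.

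Among the 30 tumours, Tgfbi and Tgfbr2 followed the macrophage markers by Pearson's r, Tgfbi without passing by rho. Smad3 ran against the brightness of the array. In all, 32 pairs of a gene and a measure were computed, with the macrophage, fibroblast and endothelial marker scores and the upper quartile of the raw signal as measures, and 9 passed by Pearson's r. Tgfbi correlated with the macrophage score at r = 0.60 (permutation p = 0.00023, Benjamini-Hochberg adjusted p = 0.00368, two-sided) and at rho = 0.42 (permutation p = 0.0221, adjusted p = 0.0642). Without the 2 tumours farthest from the median score r was 0.51, and with group means removed it was 0.60, and without the dim arrays 0.58. Tgfbr2 correlated with the same score at r = 0.52 (permutation p = 0.00471, adjusted p = 0.0229) and rho = 0.46 (permutation p = 0.0106, adjusted p = 0.0424). Its r was 0.45 without the 2 farthest, 0.50 with group means removed and 0.55 without the dim arrays. Smad3 passed with this score by rho only, at rho = -0.47 (permutation p = 0.00885, adjusted p = 0.0424) and r = -0.39 (permutation p = 0.0307, adjusted p = 0.0894). No batch is labelled for the tumours, so no value within batches can be given.

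Smad3 correlated with brightness at r = -0.77 (permutation p = 1e-05, the smallest that 100000 permutations can give, adjusted p = 0.00032) and rho = -0.59 (permutation p = 0.00067, adjusted p = 0.0133). Without the 2 farthest arrays r was -0.66 with group means removed -0.74, and without the dim arrays -0.70. Tgfbr2 went the opposite way, at r = 0.59 (permutation p = 0.0012, adjusted p = 0.0127) and rho = 0.59 (permutation p = 0.00083, adjusted p = 0.0133), with r = 0.58 without the 2 farthest. The remaining pairs with brightness that passed were Tgfbr1 at r = 0.50 (permutation p = 0.004, adjusted p = 0.0229; rho = 0.49), Tgfb1 at r = -0.45 (permutation p = 0.0103, adjusted p = 0.0410; rho = -0.37) and Skil at r = -0.44 (permutation p = 0.0134, adjusted p = 0.0477; rho = -0.45). Without the 2 farthest arrays these were at 0.43, -0.26 and -0.48, and Skil was at -0.26 without the dim arrays. The rho of Tgfb1 did not pass (permutation p = 0.0456, adjusted p = 0.0978). Brightness is a property of the array before normalization, and its part in the differences between groups was tested only as a covariate. With the endothelial score, Tgfbr2 gave r = -0.56 (permutation p = 0.00159, adjusted p = 0.0127) and rho = -0.52 (permutation p = 0.00425, adjusted p = 0.0393), with r = -0.37 without the 2 farthest. Tgfbr1 gave r = -0.50 with it (permutation p = 0.00501, adjusted p = 0.0229) and rho = -0.47, with r = -0.37 without the 2 farthest. With group means removed these were -0.47 for Tgfbr2 and -0.40 for Tgfbr1. Smad3 passed with the endothelial score by rho only, at rho = 0.50 (permutation p = 0.00577, adjusted p = 0.0393) and r = 0.35 (permutation p = 0.0576, adjusted p = 0.115). With group means removed the r of Smad3 was 0.19. No pair with the fibroblast score passed by Pearson's r.

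**Figure D5:**
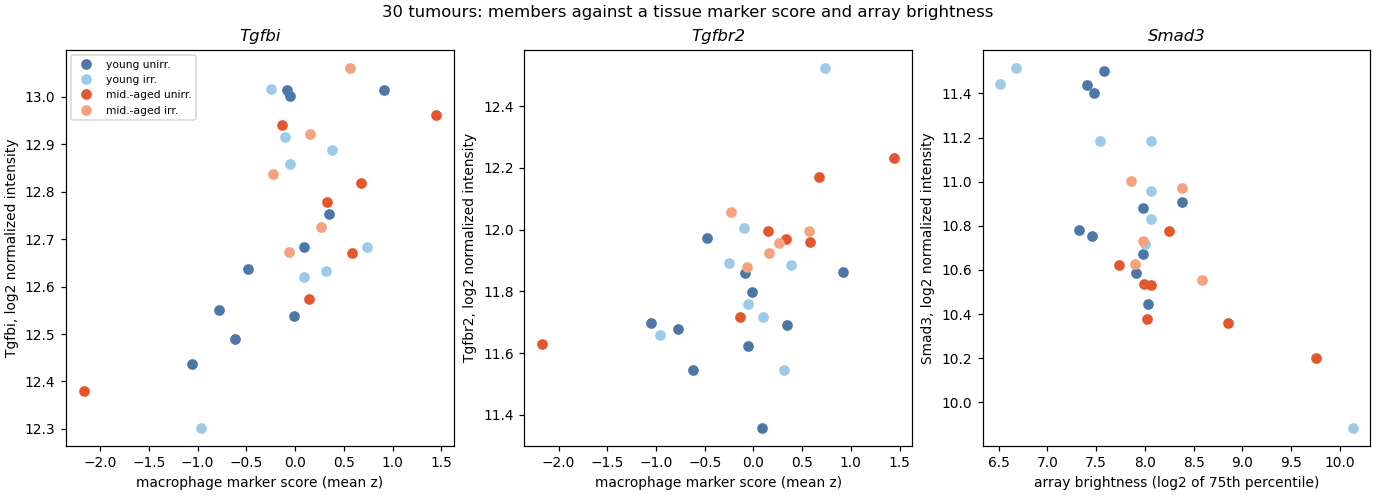
Log2 normalized intensity (y axes) of Tgfbi and Tgfbr2 against the macrophage marker score (x axis, mean z-score of the list) and of Smad3 against array brightness (x axis, log2 of the upper quartile of raw signal), 1 point a tumour, coloured by group. Tgfbi rises with the score at r = 0.60 and Smad3 falls with brightness at r = -0.77.

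Some of the genes rose and fell together from tumour to tumour, described here by Spearman's rho over 30 tumours without a test. Tgfb3 went with Tgfbr1 at 0.65 and with Tgfbr2 at 0.60, and the receptors went with each other at 0.65. Smad3 went with Skil at 0.59 and against both receptors, at -0.49 with Tgfbr1 and -0.47 with Tgfbr2. Tgfb1 and Tgfb2 stood at 0.07, and at 0.25 without the dim arrays. Without them the other pairs named here lay between 0.50 and 0.65 in size, apart from those of Smad3 with the receptors, at -0.46 and -0.38. All these values share the arrays and their brightness, with which both receptors correlated above 0 and Smad3 and Skil below 0.

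The genes most like each member over the 30 tumours were found by the same measure. They are the highest values picked among 10908 tested genes, without a test, so their size alone does not show a link. Tgfbi was nearest to Tnfsfm13 (0.71), Nckap1l (0.69) and Hpgds (0.69), the last a prostaglandin synthase of haematopoietic cells. Tgfbr1 was nearest to lumican (Lum, 0.81), Cdk12 (0.80) and Mbd1 (0.80), and Tgfbr2 to Osr2 (0.79), Gpatch8 (0.78) and Gas7 (0.78). Among the ligands, Tgfb1 was nearest to Upf1 (0.78), Sphk1 (0.73) and Akap8l (0.70), Tgfb2 to Ptges2 (0.69), Swt1 (0.68) and Recql (0.67), and Tgfb3 to Sobp (0.82), Adgra1 (0.82) and Rdh10 (0.81). Smad3 was nearest to 1700037H04Rik (0.90), Tmem201 (0.87) and Exoc3l (0.87), and Skil to Zfp637 (0.88), Gsdmd (0.85) and Rab43 (0.85). Tgfb2 had the weakest nearest gene of the 8 and Smad3 the strongest. Without the dim arrays the values of Tgfb2 with its 3 genes were 0.62, 0.61 and 0.60, and Akap8l fell to rank 21 for Tgfb1.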

How the data were processed

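RNA of 30 tumours and of LLC cells was amplified, biotin-labelled and hybridised to Illumina Mouse WG-6 arrays, which were read with GenomeStudio (version not given in the sources used here) per the submitters' processing notes. The authors deposited a linear bead intensity for each probe with no normalization between arrays. Beside it stands a detection p-value that, per the file headers, belongs to the same probe and array. The authors' own normalized intensities, called rank variant normalized in the series text, were deposited as well and served only as an alternative.

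Intensities were background-corrected and quantile-normalized over 36 arrays with neqc (limma 3.58.1 in R 4.3.3, offset 16), with the negative controls inferred from the detection p-values, and taken as log2. Probes were named from the platform annotation: 34885 of 45281 had 1 gene symbol, 18 had several and 10378 had none. Each gene was represented by its brightest probe over the tumours. Genes detected (p under 0.05) on at least 5 of 30 tumours were tested, or on at least 5 of 36 arrays against the cells. One limma fit of 4 group means gave 6 comparisons. For tumours against cells, the mean of the 4 group means was set against the 6 cell arrays averaged to 1 sample, which is assumed to vary like a tumour. Adjusted p-values are limma's with Benjamini-Hochberg over all tested genes, at a threshold of 0.05. Log2 differences of dim probes understate the change.

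The labels do not say that each tumour came from its own animal, and every p-value reflects only how these samples vary, which may be partly technical. The fit was tested on simulated data. Correlations used permutation tests of 1e+05 draws. For each comparison among tumours the 3 members with the smallest p are named, and for the other pathway genes up to 3 called genes per role list or the 2 with the smallest p. The members and lists were chosen with earlier results of these data known. Alternatives covered the background correction, normalization, detection filter, choice of probe, array weights, brightness, the dim arrays, single samples and the replicate numbers. Leaving out the 2 brightest arrays together with the dim ones was added after seeing the data.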

Additional observations from a re-analysis of the deposited data

Results flagged for a closer look

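In 1 of 32 groups of a gene's values, a single tumour stood far from the others of its group. Tgfbr2 read 12.52 in young irradiated replicate 2, while the lowest of the 8 tumours in that group read 11.54, and its gap to the nearest of them took up 0.531 of the range. The array of this tumour was the brightest of all, with an upper quartile of the raw signal of 1123, and its part in the value was not tested. Chance flags about 1 in 20 groups.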

How the results depend on the processing

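Against the LLC cells, the count of called members was 6, and between 4 and 7 over 15 other settings and 6 to 7 when 1 sample was left out. Tgfbi, Tgfb1, Skil and Tgfb3 passed in every one of these, while both receptors lost their call with the mean of detected probes. Tgfb2 turned from -0.59 to 0.00135 with median scaling. Smad3 passed with array quality weights (0.76), with brightness as a covariate (0.86), without the 2 dim and 2 brightest arrays (0.81) and without young irradiated replicate 2 (0.84).

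Among tumours no setting called a member, except that 1 (Skil) was called for irradiation in middle-aged mice with array quality weights. The same weights called 2 other pathway genes for age in unirradiated mice, 1 for irradiation in middle-aged mice and 1 for middle-aged irradiated against young unirradiated mice, where the mean of detected probes also called 1. Leaving out 1 sample gave 0 to 1 such genes for age in unirradiated mice (1 without young unirradiated replicate 5) and 0 to 2 for middle-aged irradiated against young unirradiated mice (2 without middle-aged irradiated replicate 4). Tgfb2 turned to -0.24 for age in irradiated mice with median scaling. Tgfb3 turned for irradiation in young mice, to 0.083 with array weights, 0.074 without the dim arrays and 0.16 without the dim and the brightest arrays. Of the 9 correlations that passed, 3 did so with group means removed and 7 did so without the dim arrays. The cause of these shifts was not tested.

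The replicate block gave 6 called members against the cells and 0 among tumours, and 26 other pathway genes against the cells in place of 25. Over 37 pairs of samples with 1 number, deviations correlated between -0.34 and 0.40, and 4 of 30 samples correlated best with their own number, so the numbers only name samples. Median scaling was set on the 10106 probes detected on all arrays. Signal over background limits Smad7, which has no measured level, and Tgfb2, which lies near background.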
